A study of Rattus norvegicus with 28 samples.

Results

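Accessible chromatin in the dorsal root ganglion (DRG) was described here where it is most crowded. The consensus set held 56810 regions, and a region was counted as densely clustered when it lay on chr1 to chr20, measured more than 250 and less than 1500 bp and had at least 5 other regions with midpoints within 15000 bp of its own. The rule used coordinates only and found 2140 regions, 3.77% of the set. At the edge of the rule, 1127 of them had exactly 5 neighbours, and 2381 regions of the same widths had exactly 4. The largest number of neighbours was 14, whereas 19154 autosomal regions had none. Another 200 crowded regions were too narrow for the rule and 82 were too wide.

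ATAC-seq uses the Tn5 transposase, which inserts sequencing adaptors where DNA is not wrapped in nucleosomes, so a region that collects many insertions counts as accessible. Promoters, enhancers and insulators are accessible, and groups of neighbouring accessible elements are known from locus control regions, super-enhancers and arrays of related genes. The DRG holds the cell bodies of the primary sensory neurons together with satellite glia, Schwann cells and immune cells, so each value is an average over all of these, and fewer cells of a type cannot be told apart from less accessibility per cell.

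All rats were male Sprague-Dawley animals of 12 weeks, and each library came from the ipsilateral L4 to L6 DRGs of 1 rat. In the chronic constriction injury (CCI) group the sciatic nerve had been loosely ligated 14 days earlier (6 libraries). In the CFA group complete Freund's adjuvant, which inflames the hind paw, had been injected 48 h earlier (6 libraries), and the naïve group was untreated and had no hypersensitivity (3 libraries). Animals of both pain models were kept only if they had become hypersensitive to touch, so the groups describe responding rats. Values are log2 normalized coverage per region, deposited in 1 table for CCI with naïve and in another for CFA with naïve, which were normalized separately. Levels are therefore compared within a table only, and both comparisons use the same 3 naïve libraries. Of the neuronal markers listed for a check of the tissue, 12 could be paired with a gene in the RNA-seq counts of 2 CFA rats, and all of them were above 100 CPM in both libraries. They included the neurofilament gene Nefl (9561 and 9790 CPM) and Scn10a (541 and 578 CPM), which encodes a sodium channel of nociceptors.

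The libraries of the groups also differed in a signal ratio and in sequencing runs. The signal ratio of a library was taken as the 90th divided by the 25th percentile over regions, after each value had been replaced by the number of distinct lower values in that library. A low ratio means that strong and weak regions stood less far apart in these numbers. The log2 values themselves did not differ in this way: their quantiles varied between libraries by at most 0.08 in the CCI table and 0.06 in the CFA table. The signal ratio ranged from 7.97 to 10.25 in the naïve libraries, from 8.38 to 10.2 in CFA and from 5.24 to 7.77 in CCI, so that every CCI library was below every naïve library. In addition, 4 of the 6 CCI libraries (replicates 3 to 6) came from 1 sequencing run and all other libraries from 2. Both move with the CCI comparison, and their part in it was not tested beyond the values given beside the results. The methods of the study state that libraries were downsampled to a common number of insertion sites. The average per sample in its results lies below that number, so equal depth cannot be taken as given. The deposited values, being normalized, show no depth of their own.

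Joined at steps of at most 15000 bp between midpoints, the 2140 regions formed 533 clusters. Of these, 137 held a single member, because the neighbours of that member did not themselves pass the rule, 199 held 2 to 4 members, 168 held 5 to 9 and 29 held 10 or more. Adjacent members lay 2730.5 bp apart in the median. The members were spread unevenly over the genome: on chr19 10.3% of all regions were members and on chr5 1.21%, and chr1 carried the most, with 370 members in 86 clusters. Their median width of 548.5 bp hardly differed from the 549 bp of all regions.

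The largest cluster was chr16:21748964-21894249 (rn6) with 32 members over 145285 bp, and the second was chr1:55635511-55758024 with 29 members. They were followed by chr7:455533-548164 (22 members), chr14:46594175-46667473 (21 members), chr17:89396007-89459801 (20 members) and chr1:180843562-180914498 (19 members). The next were a pair of neighbours on chr9, chr9:12298895-12365604 with 17 members and chr9:12381285-12440258 with 15, then chr16:22077033-22130989 with 14 and chr7:22363270-22409337 with 13. Together these 10 clusters held 202 members. An annotation of rn6 was not used here, so the clusters are named by position, and genes and genomic features at them were not analysed here.

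In naïve DRG the members were more accessible than other regions. Their median level, over the mean of the 3 naïve libraries, was 6.04 in the CCI table and 6.37 in the CFA table, against 5.44 and 5.70 over all regions. The level climbed with the number of neighbours: in the CCI table the median was 5.23 for regions with no neighbour, 5.90 with 4, 6.01 with 5 and 6.88 with 10 to 14. The gap was also present at matched width in narrow regions, where members narrower than 400 bp had a median of 5.33 against 4.61 for other regions of that width. Among regions of 1000 bp or more, up to the limit of the rule, the order was the other way, with 7.27 for members and 7.40 for the others.

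Within a cluster the naïve levels varied widely. Over the 197 clusters of 5 or more members, the highest and the lowest member differed by 2.05 in the median (log2, CCI table). In the largest cluster they ran from 3.59 at chr16:21893973-21894249 to 8.93 at chr16:21768465-21769818. The 3 highest members of all were chr1:11905536-11906871 (11.27, 11.05 and 11.21 in the naïve libraries of the CCI table), chr14:46654954-46655893 (10.86, 10.58 and 10.69) and chr4:77452366-77453338 (10.45, 10.53 and 10.67). The 3 lowest were chr1:181085142-181085442 (3.49, 2.31 and 2.31), chr14:46627849-46628184 (2.31, 3.31 and 3.96) and chr2:194956141-194956438 (2.82, 3.43 and 4.04), all at most 335 bp wide. The 3 members with most neighbours, 14 each, adjoined one another in the chr17 cluster, and chr17:89430540-89431867 was the most accessible of them (9.44, 10.25 and 9.84).

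**Figure D1:**
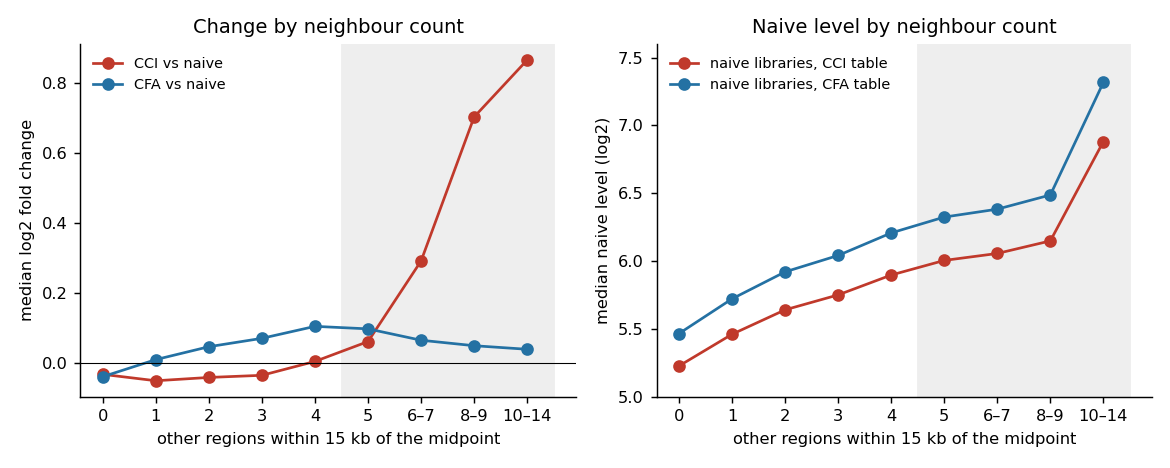
Left, the median log2 fold change of regions of 250 to 1500 bp, both excluded, against the number of other regions within 15 kb, for CCI and CFA vs naïve; right, the median naïve level (log2) in each table. The grey area holds the members: the CCI median goes from 0.06 at 5 neighbours to 0.87 at 10 to 14, the CFA median stays between 0.04 and 0.10, and the naïve level is highest at 10 to 14 neighbours.

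After CCI the crowded regions were mostly more accessible than in naïve DRG. Of the 2140 members, 58 rose and 3 fell at the p < 0.001 used by the study, 2.85% in all against 0.91% of all regions; for the rises alone the shares were 2.71% and 0.75%. At p < 0.05, 656 members (30.7%) were higher and 126 (5.89%) lower, against 8.59% and 7.45% of all regions. The log2 fold change (log2FC) had a median of 0.18 over the members and -0.04 over all regions, and it was above 0 in 64.4% of the members against 44.5% of all regions. All CCI libraries lay above all naïve libraries in 264 members (12.3%; 3.85% of all regions) and below them in 86 (4.02%; 5.26% of all regions). The 58 rises had a median naïve level of 5.46 and log2FC from 0.81 to 1.71, and 25 of the 58 lay on chr1. The count rests on single libraries: it was 10 without naïve replicate 1 and 210 without CCI replicate 5. The share over all regions was not computed for these fits, so whether the members alone moved cannot be said.

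The CCI difference was larger where regions were more crowded. The median log2FC was -0.03 in regions with no neighbour, 0.00 with 4 neighbours, 0.06 with 5, 0.29 with 6 or 7, 0.70 with 8 or 9 and 0.87 with 10 to 14. By cluster, it was 0.01 in clusters of 1 member, 0.04 in those of 2 to 4, 0.14 in those of 5 to 9 and 0.80 in those of 10 or more. In the last group 91.3% of the 412 members were higher than in naïve DRG (44.5% of all regions). Past the threshold 28 of them rose (6.80%, against 0.75% of all regions). Members in the lowest 25% of naïve levels had a median log2FC of 0.66 and other regions of that class 0.10. In the highest 25% the medians were 0.08 and -0.11. The same naïve libraries give the level and enter the log2FC, so these classes are not independent of the change.

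The difference was largest in CCI libraries with a low signal ratio. Averaged over the members of the 10 largest clusters, the deviation from the naïve mean was 1.28 in CCI replicate 3 (signal ratio 5.24), 1.16 in replicate 6 (5.32), 0.80 in replicate 4 (6.2), 1.16 in replicate 2 (6.24), 0.43 in replicate 1 (7.39) and 0.14 in replicate 5 (7.77). The naïve libraries had 0.18 at a ratio of 7.97, 0.00 at 9.10 and -0.18 at 10.25. With the signal ratio as a covariate in the limma fit, no member passed p < 0.001, against 0.102% of all regions. Calls over all regions went from 517 to 58. At p < 0.05 there were 67 members, 24 higher and 43 lower (2.83% and 2.76% of all regions). The median member log2FC turned to -0.044, and in the largest clusters the mean lay between -0.43 and 0.04. The ratio separates the CCI libraries from the naïve ones completely, so the model and the ratio cannot be told apart by this fit. Among libraries of 2 runs only (CCI replicates 1 and 2 against naïve) 9 members rose and none fell (0.421%, against 0.224% of all regions), 466 were higher and 54 lower at p < 0.05 (5.93% and 4.94% of all regions), and the median log2FC was 0.16; in clusters of 10 or more members it was 0.67.

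**Figure D2:**
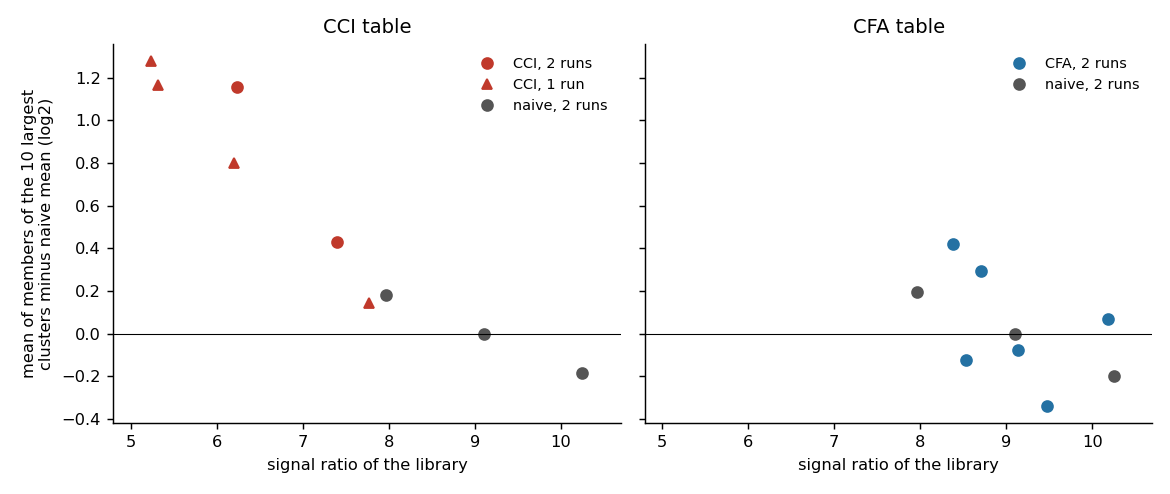
Each point is a library, with its signal ratio on the x axis and, on the y axis, its mean over the members of the 10 largest clusters minus the naïve mean (log2). Circles mark libraries of 2 runs and triangles those of 1 run; in the CCI table the 6 CCI libraries lie left of the naïve libraries and run from 0.14 to 1.28, and in the CFA table the libraries run from -0.34 to 0.42.

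In 9 of the 10 largest clusters the CCI libraries were higher than naïve by 0.80 to 1.15 on average over the members, and in 8 of these 9 every member was higher. In the largest, chr16:21748964-21894249, the mean over its 32 members was 6.04, 6.43 and 6.25 in the naïve libraries and 6.69, 7.36, 7.57, 7.09, 6.37 and 7.47 in CCI replicates 1 to 6. Only replicate 5 fell inside the naïve range, and all 32 members had a log2FC above 0. The member with the smallest p, chr16:21800202-21800493, was at 6.17, 5.85 and 6.06 in naïve and 6.51, 7.47, 7.67, 7.17, 6.67 and 7.67 in CCI, a log2FC of 1.17 ± 0.27 SE, limma p = 9.10e-04. In the CFA table the same cluster gave 6.39, 6.81 and 6.62 in naïve and 6.63, 6.87, 6.30, 6.51, 6.47 and 6.97 in CFA (CFA a, CFA b and replicates 3 to 6), with 14 of 32 members higher, so the groups overlapped.

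The chr1 cluster chr1:55635511-55758024 was the most accessible of the large ones apart from that on chr17. Its mean was 7.46, 7.89 and 7.64 in naïve and 8.15, 8.70, 8.96, 8.58, 7.83 and 8.88 in CCI, with all 29 members higher and 2 of them past the threshold. The change was not the same along the cluster. Its strongest member, chr1:55650340-55651777, was level between the groups (10.31, 10.69 and 10.58 in naïve, 10.69, 10.56, 10.58, 10.66, 10.67 and 10.69 in CCI; log2FC 0.11 ± 0.15 SE, limma p = 0.459). Another member, chr1:55682227-55683633, rose from 7.63, 8.33 and 7.98 to 8.88, 9.61, 9.57, 9.33, 8.43 and 9.49, a log2FC of 1.24 ± 0.27 SE, limma p = 6.13e-04, and its groups did not overlap. In CFA the cluster differed from naïve by 0.02, with 15 of 29 members higher.

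On chr7, the cluster chr7:455533-548164 had library means of 5.80, 6.03 and 6.03 in naïve and 6.39, 7.09, 7.53, 6.90, 6.35 and 7.32 in CCI, which did not overlap, and 4 of its 22 members rose. One of them was chr7:514572-515024, a weak region at 3.72, 3.91 and 4.52 in naïve and 5.17, 4.94, 5.90, 5.18, 4.76 and 5.76 in CCI (log2FC 1.23 ± 0.27 SE, limma p = 6.57e-04). Another was the strongest member, chr7:507011-508401, at 8.25, 8.70 and 8.71 and 9.12, 9.67, 9.85, 9.73, 9.02 and 9.89 (log2FC 0.99 ± 0.23 SE, limma p = 9.91e-04). These values lay within 1 standard error of each other. The smaller chr7 cluster chr7:22363270-22409337 showed the same with means of 6.0, 6.40 and 6.34 in naïve and 6.87, 7.45, 7.79, 7.05, 6.48 and 7.59 in CCI, and all 13 members were higher. In CFA the means of both differed from naïve by at most 0.10.

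The neighbouring chr9 clusters behaved alike. The cluster chr9:12298895-12365604 had means of 5.95, 6.21 and 5.93 in naïve and 6.39, 7.18, 7.32, 6.77, 6.26 and 7.19 in CCI, and chr9:12381285-12440258 had 6.05, 6.31 and 6.09 and 6.45, 7.23, 7.49, 6.76, 6.34 and 7.41. The groups did not overlap in either, and 17 of 17 and 14 of 15 members were higher. The exception was chr9:12391558-12391870, at 5.74, 5.82 and 5.56 in naïve and 5.64, 5.32, 6.38, 5.10, 5.47 and 5.83 in CCI (log2FC -0.09 ± 0.25 SE, limma p = 0.733). The second chr16 cluster, chr16:22077033-22130989, was at 6.03, 6.38 and 6.08 in naïve and 6.68, 7.35, 7.57, 7.18, 6.39 and 7.46 in CCI with 14 of 14 members higher. Its weakest member chr16:22091614-22092059 rose by 1.46 ± 0.26 SE, limma p = 1.15e-04.

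The chr17 cluster chr17:89396007-89459801 had the most variable CCI and CFA libraries of the 10 largest. Its library means were 7.59, 8.19 and 7.91 in naïve and 7.91, 9.23, 9.53, 8.86, 8.16 and 9.46 in CCI, and all 20 members were higher, but none passed the threshold and the groups overlapped. In the CFA table they were 8.08, 8.68 and 8.40 in naïve and 9.0, 9.26, 7.54, 8.17, 8.15 and 9.43 in CFA, again with all 20 members higher and none called. CFA a, CFA b and replicate 6 stood between 9.0 and 9.43 and the other CFA libraries between 7.54 and 8.17. The SD between libraries was 0.75 in CFA and 0.30 in naïve, and the 3 high CFA libraries had signal ratios of 10.2, 8.70 and 8.38, against 8.53 to 9.47 in the low ones. One of the members with 14 neighbours, chr17:89426901-89427360, was at 8.11, 8.34, 6.88, 7.32, 7.27 and 8.49 in CFA and 7.51, 7.6 and 7.42 in naïve, the same split as in the whole cluster.

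The chr14 cluster chr14:46594175-46667473 was the exception among the 10, but not in libraries of 2 runs only, where its mean log2FC was 0.71 with 16 of 21 members higher and the other 9 clusters had 0.67 to 1.08. Over all libraries its library means were 6.41, 6.54 and 6.54 in naïve and 7.0, 7.43, 6.29, 6.46, 5.83 and 6.35 in CCI, 13 of its 21 members were higher and 8 lower, and the log2FC of single members ran from -2.69 to 1.66. Members less than 30 kb apart went in opposite directions. The weak region chr14:46627849-46628184 rose from 2.31, 3.31 and 3.96 in naïve to 5.17, 4.81, 4.87, 5.35, 4.27 and 4.67 in CCI (log2FC 1.66 ± 0.32 SE, limma p = 2.22e-04). The strongest, chr14:46654954-46655893, stood at 10.86, 10.58 and 10.69 in naïve and 10.29, 9.83, 8.80, 8.72, 8.27 and 8.74 in CCI; every CCI library was below naïve, with a log2FC of -1.60 ± 0.38 SE, limma p = 0.0011 that missed the threshold. CCI replicates 1 and 2 were nearest to naïve in it.

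That split of the CCI rats was sharper in the region beside it, which was picked out after its values were seen. At chr14:46654181-46654519 the naïve libraries were at 7.17, 6.62 and 7.05 and the CCI libraries at 6.71, 7.15, 2.57, 2.62, 3.39 and 3.11, so replicates 1 and 2 were at the naïve level and replicates 3 to 6 between 2.57 and 3.39. The log2FC of the group was -2.69 ± 0.96 SE, limma p = 0.0158, and the split coincides with the number of sequencing runs. At chr14:46620688-46621163, chosen in the same way, replicate 4 alone was at 0.51 while the other CCI libraries lay between 5.80 and 7.75. In CFA, 2 members of this cluster fell. The region chr14:46599234-46599700 was at 6.57, 6.80 and 6.35 in naïve and 5.62, 5.36, 5.82, 5.63, 4.98 and 5.63 in CFA (log2FC -1.07 ± 0.18 SE, limma p = 1.14e-04), and chr14:46633113-46633890 was at 7.19, 7.10 and 7.23 and 6.67, 6.44, 6.24, 6.27, 6.62 and 6.64 (log2FC -0.69 ± 0.13 SE, limma p = 3.20e-04).

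**Figure D3:**
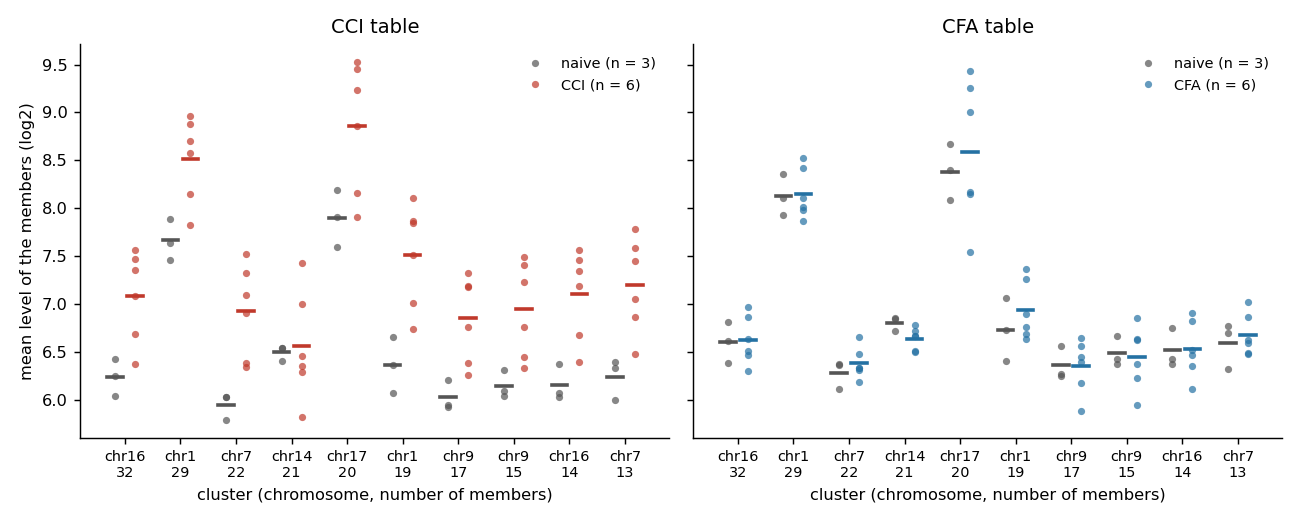
Mean log2 level over the members of each of the 10 largest clusters in every library, in the CCI table (left) and the CFA table (right); the x axis gives the chromosome and the number of members, points are libraries and bars the group means. The CCI mean is 0.80 to 1.15 above the naïve mean in all but the chr14 cluster, where it is 0.06 above, and the CFA means lie within 0.21 of naïve, with the CFA libraries of the chr17 cluster between 7.54 and 9.43.

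**Figure D4:**
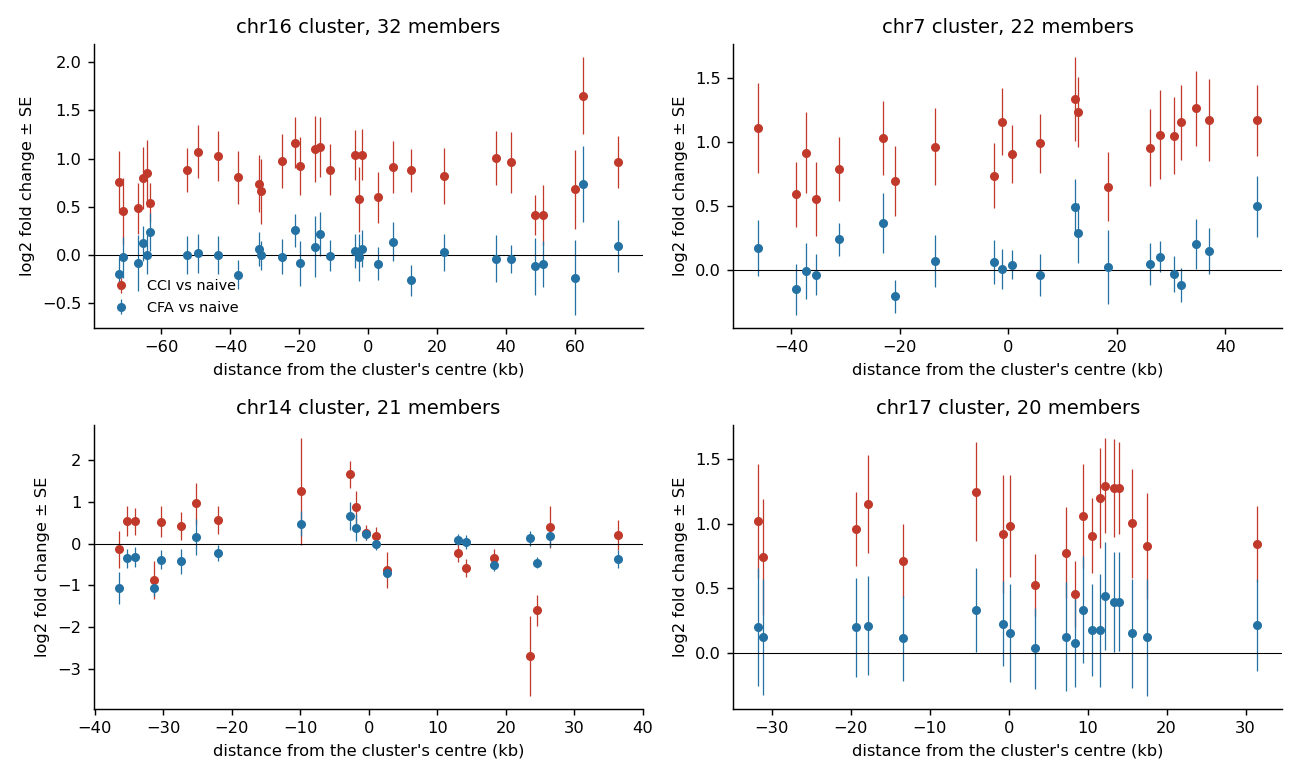
Log2 fold change ± SE of every member of 4 of the largest clusters against its distance from the centre of the cluster (kb), for CCI (red) and CFA (blue) vs naïve. In the chr16, chr7 and chr17 clusters all CCI values are above 0 along the whole span, whereas the chr14 cluster runs from -2.69 to 1.66.

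A stretch of chr1 carried many of the rises. Between chr1:180566278 and 182002643, bounds chosen after the values were seen, lay 10 clusters with 60 members, of which 59 were higher in CCI (44.5% of all regions) and 20 rose past the threshold (0.75% of all regions), with a median log2FC of 1.18. The largest of them, chr1:180843562-180914498, had means of 6.07, 6.66 and 6.36 in naïve and 7.01, 7.87, 8.10, 7.51, 6.74 and 7.84 in CCI, the largest difference of the 10 largest clusters (1.15). Of its 19 members 5 rose, among them chr1:180875033-180875574 (4.86, 4.87 and 4.99 in naïve, 5.61, 6.17, 6.72, 6.33, 5.72 and 5.95 in CCI; log2FC 1.18 ± 0.23 SE, limma p = 2.44e-04). The member chr1:180956608-180957721 rose more, from 5.42, 5.89 and 5.56 to 7.16, 7.40, 7.65, 7.13, 6.32 and 7.37 (log2FC 1.55 ± 0.26 SE, limma p = 5.33e-05). In CFA the same stretch had 54 of 60 members above naïve with a median log2FC of 0.20, and none passed the threshold.

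Several members of the same cluster passed the threshold together in 15 clusters, all upward, which held 36 of the 58 rises. Besides 5 of the 10 largest clusters these were chr1:181169020-181189952 (3 of 9 members), chr1:181072380-181085442 (2 of 6), chr1:180704343-180741590 (2 of 6), chr1:180566278-180581472 (2 of 3) and chr1:181210454-181215933 (both of its 2 members) in the chr1 stretch, chr1:181956269-182002643 (2 of 10) at its end, chr1:195829821-195856163 (2 of 7), chr12:3340812-3366234 (2 of 8), chr13:33719738-33756166 (2 of 10) and chr19:27242559-27281349 (2 of 6). Their means exceeded naïve by 0.85 to 1.40. No cluster had more than 1 member that fell.

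A single member (1 of 2140) passed the Benjamini-Hochberg correction over all 56810 regions, with an adjusted p of 0.0496 in limma (0.0158% of all regions passed); with an intensity trend in the prior 259 members did (12.1%, against 2.25% of all regions), and with a robust prior none. It was chr2:1113372-1113850, at 3.6, 3.84 and 3.81 in naïve and 5.12, 5.42, 5.12, 5.86, 5.12 and 4.93 in CCI, a log2FC of 1.51 ± 0.21 SE, limma p = 7.86e-06; its groups did not overlap, and the two-sided exact permutation test gave p = 0.0119, the smallest that 84 splits of 9 libraries allow. This region was higher in CFA as well (3.79, 4.01 and 3.98 in naïve and 4.15, 5.07, 4.49, 4.58, 4.8 and 5.24 in CFA), without passing the threshold (log2FC 0.80 ± 0.22 SE, limma p = 0.00351). In contrast, chr2:156221967-156222270, at 3.49, 3.53 and 3.81 in naïve and 4.30, 5.05, 4.99, 4.73, 4.76 and 5.10 in CCI (log2FC 1.21 ± 0.20 SE, limma p = 4.45e-05), did not differ by more than its error in CFA (-0.03 ± 0.20). The other members among the 5 smallest p were chr1:180956608-180957721, chr7:22330989-22331288 (log2FC 1.5 ± 0.25 SE, limma p = 6.03e-05) and chr1:181964499-181965074 (log2FC 1.23 ± 0.21 SE, limma p = 6.84e-05). These 5 were taken from called members whose groups did not overlap, which held for 57 of the 58 rises. All 5 kept p < 0.001 when any single library was left out.

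The 3 members that fell after CCI were regions of at most 470 bp outside the 10 largest clusters. They were chr10:15166390-15166651, at 6.08, 5.80 and 6.19 in naïve and 5.17, 4.94, 5.12, 4.67, 5.18 and 4.0 in CCI (log2FC -1.18 ± 0.25 SE, limma p = 5.21e-04), chr8:61535600-61535862, at 5.56, 5.19 and 5.45 in naïve and 4.67, 4.67, 4.37, 4.36, 4.8 and 4.73 in CCI (log2FC -0.80 ± 0.17 SE, limma p = 4.64e-04), and chr3:175600889-175601359, at 6.39, 6.27 and 6.29 in naïve and 5.44, 5.79, 5.82, 5.32, 5.74 and 5.42 in CCI (log2FC -0.73 ± 0.17 SE, limma p = 9.04e-04). In none of them did the groups overlap. The clusters of the first and second, chr10:15152902-15177218 and chr8:61531489-61549280, were lower as wholes, with all 7 and all 6 members below naïve.

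The clusters did not all move the same way after CCI. Of the 197 clusters with 5 or more members, all members were higher after CCI in 74 and all were lower in 15; the mean log2FC exceeded 0.5 in 73, lay between 0.25 and 0.5 in 21, within 0.25 of 0 in 82 and below -0.25 in 21. The log2FC is taken against the same naïve libraries that give the naïve level, so level and change are not independent. Clusters with all members higher had a median naïve level of 5.56 and those with all members lower one of 6.51. Among the latter were chr8:48801172-48821963, at 7.24, 7.04 and 7.27 in naïve and 6.99, 6.88, 6.63, 6.73, 6.94 and 6.55 in CCI, and chr4:7088048-7098924, at 6.56, 6.40 and 6.46 in naïve and 6.10, 6.08, 6.08, 6.05, 6.01 and 5.84 in CCI, in both of which every CCI library was below naïve. The lowest mean log2FC, -1.01, was at chr1:11905536-11913169, which holds the most accessible member of all: its 5 members averaged 9.44, 9.51 and 9.45 in naïve and 9.75, 9.26, 7.83, 8.31, 7.83 and 7.74 in CCI. Replicates 1 and 2 were again close to naïve there and replicates 3 to 6 between 7.74 and 8.31. These clusters were named after their values were seen.

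After CFA most crowded regions lay close to their naïve level. Of the 2140 members, 24 rose and 4 fell at p < 0.001, 1.31% against 1.12% of all regions, and for the rises alone 1.12% against 0.565%. None had an adjusted p below 0.05 in limma with its default prior, where 322 members were higher and 79 lower at p < 0.05 (9.5% and 9.45% of all regions). With an intensity trend in the prior 190 members (8.88%) had an adjusted p below 0.05, against 6.54% of all regions, and with a robust prior none. Leaving out naïve replicate 2 or 1 lowered the 28 calls to 6 or 12, and the share over all regions was not computed for these fits. The median log2FC was 0.07 over the members and 0.01 over all regions, and 62.9% of the members were above 0 against 50.8% of all regions. All CFA libraries lay above all naïve libraries in 221 members (10.3%; 5.39% of all regions) and below them in 39 (1.82%; 5.65% of all regions).

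After CFA the median log2FC climbed only up to the edge of the rule. It was -0.04 in regions with no neighbour, 0.01 with 1, 0.05 with 2, 0.07 with 3 and 0.10 with 4 and with 5, and among more crowded members it was 0.06 at 6 or 7, 0.05 at 8 or 9 and 0.04 at 10 to 14, and it was 0.11 in clusters of 1 member and 0.03 in clusters of 10 or more. Of the 24 rises, 1 lay in a cluster of 10 or more members, against 28 of 58 after CCI. These were 0.243% of the members of such clusters after CFA and 6.80% after CCI. Over all regions the shares of rises were 0.565% and 0.75%. The CFA rises had a median naïve level of 7.36 in their table and log2FC from 0.49 to 0.83. Among the 29 clusters of 10 or more members the mean CFA difference lay between -0.21 and 0.21.

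Of the clusters, 2 had more than 1 member that rose after CFA. In chr1:221159379-221174504 2 of 6 members rose, and the cluster averaged 7.38, 7.50 and 7.63 in naïve and 7.80, 7.88, 7.93, 7.99, 8.07 and 7.87 in CFA. In chr17:80874051-80883053 2 of 3 members rose, with 7.31, 7.30 and 7.41 in naïve and 7.73, 7.88, 7.74, 7.97, 7.89 and 7.78 in CFA. The CFA libraries stood close together in both, above every naïve library. The 5 rises with the smallest p were chr1:104582296-104583028 (log2FC 0.74 ± 0.12 SE, limma p = 6.10e-05), chr16:20002994-20003495 (0.71 ± 0.12 SE, limma p = 7.13e-05), chr16:7782683-7783071 (0.81 ± 0.14 SE, limma p = 1.36e-04), chr1:226239844-226240444 (0.57 ± 0.11 SE, limma p = 2.05e-04) and chr14:88688259-88688798 (0.66 ± 0.12 SE, limma p = 2.07e-04). In the first the naïve libraries were at 7.70, 7.78 and 7.97 and the CFA libraries at 8.43, 8.55, 8.58, 8.48, 8.53 and 8.75. The choice of these 5 required groups without overlap, which held for all 24 rises.

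Some whole clusters were higher after CFA. All members were higher in 31 of the 197 clusters with 5 or more members and all were lower in 4. In chr12:46794400-46810302, chosen after its values were seen, all 5 members were higher and the cluster averaged 7.08, 7.15 and 7.12 in naïve and 7.46, 7.46, 7.48, 7.46, 7.51 and 7.43 in CFA, while after CCI all 5 were lower (6.67, 6.74 and 6.71 in naïve and 6.70, 6.66, 6.27, 6.62, 6.62 and 6.42 in CCI). The following clusters were chosen in the same way. The 10 members of chr10:55683532-55712020 averaged 6.97, 7.06 and 7.10 in naïve and 7.35, 7.23, 7.23, 7.24, 7.24 and 7.25 in CFA, and 8 were higher. The reverse pattern was seen in chr17:11781705-11810956, where all 11 members were higher after CCI (mean 0.76) and all 11 lower after CFA (-0.21). No test of the difference between the models was made for these clusters.

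The greatest CFA difference of any cluster with 5 or more members was downward, at chr16:64914259-64934941. Its 5 members averaged 6.40, 6.74 and 6.33 in naïve and 4.85, 4.95, 6.09, 4.06, 4.39 and 5.21 in CFA, and all of them were lower, with log2FC from -1.89 to -1.32; the smallest p was at chr16:64914259-64914787 (log2FC -1.32 ± 0.23 SE, limma p = 1.47e-04). CFA replicate 3 was nearest to naïve. In the CCI table the same cluster ranged from 4.54 in replicate 5 to 8.08 in replicate 4 around naïve means of 6.07, 6.37 and 6.0. At the member chr16:64934571-64934941 the CCI libraries were at 6.47, 5.05, 4.37, 7.81, 3.13 and 3.85. The remaining member that fell after CFA was chr7:1625228-1625833, at 7.84, 7.81 and 8.08 in naïve and 7.42, 7.14, 7.17, 7.45, 7.32 and 7.49 in CFA (log2FC -0.58 ± 0.13 SE, limma p = 8.05e-04).

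Regions that the study lists as changed in both models were not particular to the members. Most lay outside them, and members are only 3.77% of all regions. Among the members, chr12:3340812-3341234 (1 of 2140) passed p < 0.001 in both comparisons. The share of all regions that passed in both was not computed here, so this count is not a result about the members. The region was at 4.73, 4.99 and 5.01 in naïve and 6.03, 6.76, 6.75, 6.54, 5.56 and 6.79 in CCI, a log2FC of 1.49 ± 0.27 SE, limma p = 1.11e-04, and in the CFA table at 4.94, 5.21 and 5.25 in naïve and 5.91, 6.20, 5.51, 6.12, 5.82 and 6.22 in CFA, a log2FC of 0.83 ± 0.17 SE, limma p = 4.64e-04. Both pairs of groups were free of overlap, and both comparisons use the same naïve rats. Its cluster chr12:3340812-3366234 had 8 members, with means of 5.62, 5.80 and 5.80 in naïve and 6.45, 7.26, 7.27, 6.74, 6.05 and 7.15 in CCI, and a CFA difference of 0.20. Without naïve replicate 1 its p rose to 0.00103 in CCI, and in CFA it stayed below 0.001 in 3 of 9 fits with a library left out.

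Neighbours changed together, by a larger share of pairs after CCI than after CFA. Adjacent members of a cluster formed 1607 pairs, and their log2FC had the same sign in 77.1% of them after CCI and in 62.8% after CFA. The split of signs alone would give 55.3% and 53.0%. Over other consecutive regions up to 15 kb apart the shares were 60.5% and 57.9%, over those more than 15 and up to 50 kb apart 55.6% and 55.0%, and beyond 200 kb 53.7% and 52.8%. The other pairs up to 15 kb were not matched to the members in distance (median 6768.5 bp, against 2730.5 bp) or in naïve level. Across the 1607 pairs, which share libraries and are not independent, the log2FC of neighbours correlated with a Pearson r of 0.76 after CCI and 0.38 after CFA. The intraclass correlation within clusters of 2 or more members, the share of the variance in log2FC that lies between clusters, was 0.71 after CCI and 0.33 after CFA, and with the 10 largest clusters left out it was 0.71 and 0.35.

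The likeness reached across the whole window after CCI. Members up to 1000 bp apart had the same sign in 81.9% of pairs and those 10000 to 15000 bp apart in 75.6%, with r of 0.79 and 0.70; after CFA the shares were 61.0% and 61.1%, with r of 0.41 and 0.31. Neighbours also deviated together within a group: the deviations of single libraries from their group mean correlated between adjacent members with r of 0.56 in the CCI table and 0.42 in the CFA table, against 0.19 and 0.12 for other consecutive regions up to 15 kb apart. Those other regions lay further apart and were weaker in naïve DRG, and neither was matched. With the signal ratio as a covariate the same-sign share after CCI was 59.2%, and after CFA it was 62.6%. In the 2-run libraries alone the CCI share was 75.4%.

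**Figure D5:**
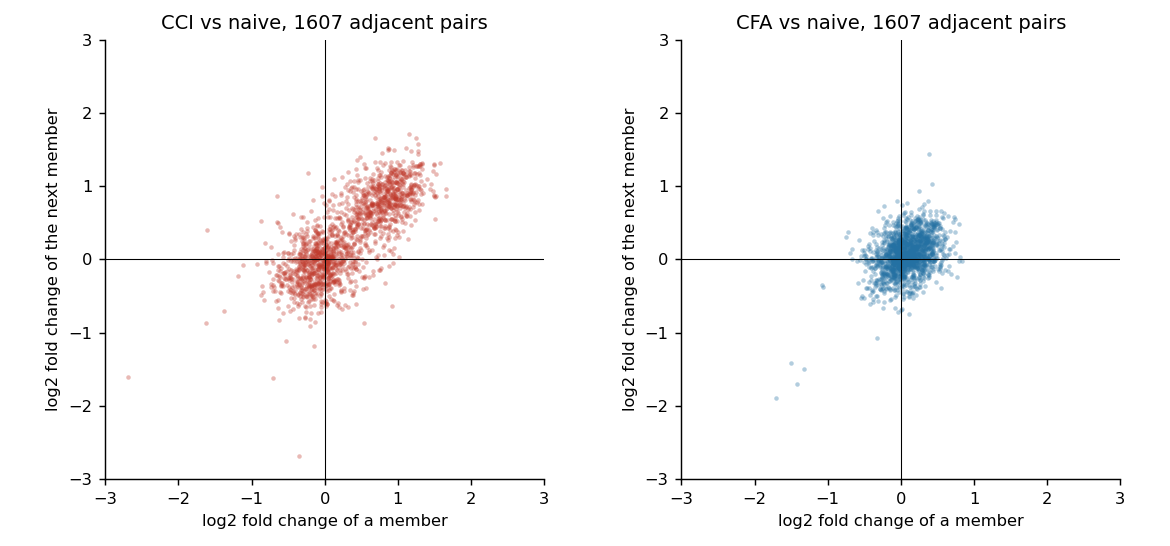
Each point is a pair of adjacent members, with the log2 fold change of one on the x axis and of the next on the y axis, for CCI (left) and CFA (right) vs naïve; 1607 pairs each. After CCI 881 pairs are higher together and 358 lower together, in a cloud that stretches along the diagonal, and after CFA 700 and 309.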

How the data were processed

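ATAC-seq was analysed for 6 CCI, 6 CFA and 3 naïve libraries. According to the methods, the authors aligned reads to rn6 with Bowtie2, removed reads of low mapping quality and duplicates, and shifted reads for the Tn5 insertion. They downsampled libraries to a set number of insertions and ran MACS2 on each library. Regions that recurred among the libraries of a group were kept, and the read counts were normalized. They deposited log2 values per region, 1 table per comparison; the columns of a table share nearly 1 distribution, so differences are relative to all regions. The authors also deposited raw RNA-seq counts of 2 CFA rats (10520647 and 28825688 counts), used for the tissue check only. No deposited sample column was left unused.

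The log2 values of all 56810 regions were fitted per table with limma 3.58.1 (R 4.3.3; default prior, groups only, unadjusted p below 0.001 as in the study, Benjamini-Hochberg adjustment over all regions). Single regions were also tested with a two-sided exact permutation test (scipy 1.17.1; Python 3.11.15, numpy 2.4.6, pandas 2.3.3, matplotlib 3.10.9). The fit was tested on simulated data. Members were joined into clusters at up to 15000 bp between midpoints, and a cluster is described by the mean over its members, without a test. Regions named are the 10 largest clusters with their extreme members, and members called in both comparisons or with adjusted p below 0.05. Named too are the 3 members with most neighbours and with the highest and lowest naïve levels, and clusters with 2 or more called members. Per comparison and direction, the 5 smallest p are named among called members whose groups do not overlap. Other regions are said to be chosen after their values were seen. The members and lists were chosen with earlier results of these data known. The 2 CFA columns without a distinct replicate number are called CFA a and CFA b. Libraries are separate rats. CCI and naïve libraries of the same number did not deviate together (r = -0.06, 0.07 and -0.03 for numbers 1, 2 and 3), and CFA and naïve libraries did so for number 1 at most (0.15, 0.04 and 0.04), so no pairing was assumed. The alternatives were other priors and weights, filters, windows and thresholds, single libraries left out, a replicate block, libraries of 2 runs, and, chosen after seeing the data, the signal ratio as covariate, the replicate block for CFA, the 10 largest clusters left out and no width limit for clusters.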

Additional observations from a re-analysis of the deposited data

Results flagged for a closer look

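A library far from the others of its group was found for 3 of the named members, among 59 members and 10 clusters examined per table; chance alone gives this in about 1 of 20 groups. At chr17:89430540-89431867 CCI replicate 1 was at 9.66 and the other CCI libraries at 10.39 to 10.64, a gap of 0.7405 of the group's range. At chr1:226239844-226240444 CFA replicate 3 was at 8.06 and the others at 7.85 to 7.90 (0.7656 of the range). At chr16:20002994-20003495 CFA replicate 5 was at 8.26 and the others at 8.03 to 8.12 (0.627 of the range).

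The member chr16:22077033-22077603 differed between the pain models. Every CCI library was above the naïve mean (log2FC 0.86) and every CFA library below it (-0.35), which makes a difference of 1.21; this difference was not tested, and both comparisons use the same naïve libraries.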

How the results depend on the processing

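Called members in CCI numbered 246 with an intensity trend (11.5%, against 2.10% of all regions) and 104 with a replicate block (4.86%, against 0.676%). They numbered 9 in libraries of 2 runs (0.421%, against 0.224%) and 0 with the signal ratio as covariate (0.102% of all regions). They numbered 146 with sample quality weights, 379 at p < 0.01 and 1 at adjusted p < 0.05 (0.0158% of all regions). Called members in CFA numbered 135 with the trend (6.31%, against 4.16% of all regions) and 0 with a replicate block in limma (0.0986% of all regions). With the block, 255 members had p < 0.05, 186 higher and 69 lower (6.77% and 6.86% of all regions). In both block fits, pain libraries whose number no naïve library carries do not enter the contrast. These fits thus rest on fewer libraries than the main ones. Called members in CFA numbered 45 without the lowest 25% of regions, 166 at p < 0.01 and 0 at adjusted p < 0.05. Shares over all regions were not computed for the quality weights, the filter, p < 0.01 or the fits with a library left out. The rule held 646 members with midpoints within 10000 bp, 4368 within 20000 bp and 242 with at least 8 other regions. Among these the counts were 28, 106 and 13 in CCI and 6, 63 and 2 in CFA. The shares over all regions stayed at 0.91% in CCI and 1.12% in CFA, as the fit was the same. Under the same rules the same-sign share of adjacent members in CCI was 83.0%, 72.6% and 90.9%, and in CFA it was 59.2% (10000 bp) and 57.5% (8 regions). The naïve level was 6.26, 5.98 and 6.21 in the CCI table and 6.61, 6.29 and 6.56 in the CFA table, and the median CCI log2FC was 0.47 (10000 bp) and 0.75 (8 regions). The CCI same-sign share was 59.2% with the signal ratio, where the median log2 fold change reversed to -0.044, 79.2% with the replicate block and 74.5% without the 10 largest clusters. Joined at 10000 bp, the largest cluster had 19 members. The causes were not tested.

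Leaving out 1 library at a time gave 10 (without naïve replicate 1) to 210 (without CCI replicate 5) called members in CCI and 6 (without naïve replicate 2) to 27 in CFA, medians of 0.16 to 0.21 and 0.04 to 0.11, same-sign shares of 74.7% to 78.7% and 61.7% to 65.2%, and naïve levels of 6.04 to 6.07 and 6.36 to 6.40. The CCI count was also moved by over 1.5 times without naïve replicate 2 (36), naïve replicate 3 (18), CCI replicate 1 (128), CCI replicate 2 (30), CCI replicate 3 (35), CCI replicate 4 (37) or CCI replicate 6 (27), and the CFA count without naïve replicate 1 (12), CFA replicate 4 (17) or CFA replicate 5 (18). Of the 198 such fits of the 22 named regions called in CCI, 123 kept p < 0.001 and none reversed. The replicate numbers are shared by CCI and naïve libraries but do not pair them: the CCI replicates 1, 2 and 3 correlated best with naïve numbers 2, 2 and 1. For CFA the block used the numbers in the column names and was added after seeing the data. Numbers 1, 2 and 3 had r of 0.15, 0.04 and 0.04, so they do not pair the libraries; the 3 CFA libraries correlated best with their own naïve number, a hint from the data and not from the design, and naïve libraries 2 and 3 did not with theirs. The deposited ATAC-seq values show no read depth, so a limit from depth was not computed.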
